A study of Rattus norvegicus with 24 samples.

Results

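The alpha globin locus on rat chromosome 10 was examined in the right cerebral cortex of 24 newborn pups. Its 10 members were chosen by position: the row of Hba-a3 (ENSRNOG00000045989) and the 9 chromosome 10 genes whose start lies nearest to its start, whatever their level. They are 10 of the 26404 genes counted. Hba-a3 itself was selected on its difference between the conditions in earlier results of these data, so that its difference, and that of the other globin-like rows, is given as a description with no test. The members were split by exonic length: 5 rows under 800 bases were called globin-like and 5 longer rows flanking. The longest globin-like row measured 590 bases and the shortest flanking row 877 bases.

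All pups were Sprague Dawley rats taken at postnatal day 0. In the saline pump group, 12 pups came from 3 dams that were anesthetized with isoflurane on embryonic day 18 and received a saline-filled infusion pump under the skin, with a catheter in the jugular vein. In the spontaneous labor group, 12 pups came from 3 dams that were not handled. By the paper, the dams of both groups labored spontaneously and delivered vaginally. The group names therefore mark the pump surgery and not a difference in labor or delivery. Both sexes came from every litter, with 2 males and 2 females in each, and a condition was given to a dam and so to all of her pups. The paper's supplement adds buprenorphine and an antibiotic to the pump surgery. Anesthesia, surgery, these drugs and the implanted pump with its saline infusion were given together and cannot be told apart. The libraries, primed with oligo-dT, held 12170547 to 19260066 counted reads (median 14631114.5).

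Hemoglobin carries oxygen in red cells as a tetramer of alpha-like and beta-like chains, which are encoded by separate gene clusters on different chromosomes. Red cell precursors transcribe these genes at very high rates, and globin mRNA persists in the reticulocytes that circulate in large numbers around birth. In the alpha cluster an embryonic zeta gene and the adult alpha genes lie in a row, and distant enhancers that drive them in the erythroid lineage lie inside the introns of the neighbor Nprl3, a gene that encodes a subunit of the GATOR1 complex, an inhibitor of mTORC1. Nprl3 is read in most tissues. Whole cortex contains blood, so a globin count can come from red cells in its vessels. In such bulk samples, fewer red cells and less globin RNA per red cell cannot be told apart.

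In the coordinates of the deposited files (Rnor_5.0), the 10 members span chr10:15392902-15563138. ENSRNOG00000028241 (chr10:15392902-15405995, minus strand, 12 exon entries, 2625 bases of exon) and ENSRNOG00000020488 (chr10:15435862-15462627, plus strand, 8 exon entries, 1712 bases) lie on the side of lower coordinates. Hba-a3 follows (chr10:15472255-15473102, minus strand, 3 exon entries, 548 bases). ENSRNOG00000047321 (chr10:15484461-15485305, minus strand, 3 exon entries, 545 bases) starts 12206 bases beyond the start of Hba-a3. ENSRNOG00000029886 (chr10:15497886-15498744, minus strand, 3 exon entries, 559 bases) starts 25631 bases beyond it. Between these rows lies ENSRNOG00000028114 (chr10:15494921-15496002, minus strand, 7 exon entries, 877 bases), which its length places among the flanking rows although it lies inside the cluster. ENSRNOG00000020536 (chr10:15504499-15505978, minus strand, 3 exon entries, 590 bases) and ENSRNOG00000049764 (chr10:15511055-15511155, minus strand, 1 exon entry, 101 bases) close the globin-like rows. Nprl3 (ENSRNOG00000020541, chr10:15516050-15556474, plus strand, 12 exon entries, 2618 bases) and ENSRNOG00000020571 (chr10:15556935-15563138, minus strand, 4 exon entries, 1003 bases) complete the set.

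Names in hand paired 2 of the 10 identifiers with a symbol, Hba-a3 and Nprl3, and the other members are given by identifier. In the RefSeq order of the assembly GRCr8 the protein-coding genes run from Luc7l through Hba-a3, Hba-a2, Hbq1b, Hba-a1 and Hbz to Nprl3 and Mpg. That order names the genes of the region and was not used to name any row. Only reads with a single unambiguous alignment were counted. Adult alpha globin genes are close copies of each other, so reads that match several copies equally well are missing, and the levels of these rows are uncertain to that extent. Whether reads from an abundant copy were counted on Hba-a3 was not tested. Every level, share and correlation of Hba-a3 given below carries that limit.

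The promoters of Hba-a3 and of its neighbors Hba-a2 and Hba-a1 are shown because the first gene is read at a far lower level than the 2 abundant globin-like rows beside it. Each line gives the 250 bases before the RefSeq start in GRCr8, minus strand, read 5′ to 3′. Capitals mark matches on either strand to the motifs searched: GATAA, the core of the site of GATA factors; CACCC, the core of the site of KLF factors; CCAAT, the CCAAT box; TATAAA or CATAAA, forms of the TATA box. These motifs did not overlap each other in the 3 windows.
Hba-a3 (chr10:15816944-15817193): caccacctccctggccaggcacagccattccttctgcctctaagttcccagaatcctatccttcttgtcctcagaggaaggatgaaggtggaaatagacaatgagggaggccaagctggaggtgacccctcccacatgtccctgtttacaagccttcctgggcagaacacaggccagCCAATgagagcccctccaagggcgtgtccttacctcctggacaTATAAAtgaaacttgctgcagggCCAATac
Hba-a2 (chr10:15829139-15829388): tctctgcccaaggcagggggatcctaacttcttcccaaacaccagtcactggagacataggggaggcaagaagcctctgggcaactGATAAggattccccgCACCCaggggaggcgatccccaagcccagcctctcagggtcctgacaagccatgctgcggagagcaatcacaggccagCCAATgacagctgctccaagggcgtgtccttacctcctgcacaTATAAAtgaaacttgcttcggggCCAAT
Hba-a1 (chr10:15842581-15842830): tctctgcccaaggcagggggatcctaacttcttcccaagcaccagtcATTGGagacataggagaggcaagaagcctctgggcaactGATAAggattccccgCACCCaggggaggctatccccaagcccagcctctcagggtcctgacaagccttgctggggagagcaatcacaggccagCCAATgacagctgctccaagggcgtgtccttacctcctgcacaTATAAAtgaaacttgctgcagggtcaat

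In the window of Hba-a3 a TATAAA began 30 bases and 2 CCAAT began 73 and 7 bases before the start, and neither GATAA nor CACCC was present in these letters. In the windows of both Hba-a2 and Hba-a1, GATAA began at 164 bases, CACCC at 149, CCAAT at 71 and TATAAA at 28 bases before the start. Each of these windows also held another CCAAT, at 5 bases in Hba-a2 and, on the opposite strand, at 203 bases in Hba-a1. Of 33469 rat promoters of this length, 23.5% held GATAA, 49.2% CACCC, 34.0% CCAAT, 12.9% TATAAA and 11.4% CATAAA, and 4.58% held both CCAAT and TATAAA. The windows of Hba-a2 and Hba-a1 were 96.4% identical in a global alignment. That of Hba-a3 was 65.5% identical to Hba-a2 and 66.4% to Hba-a1. The windows were also anchored on their TATAAA and compared position by position without gaps. Over 77 bases around the box Hba-a3 matched Hba-a2 at 90.9% and Hba-a1 at 93.5% of positions. Over the next 54 bases upstream it matched them at 25.9% and 22.2%. An insertion or deletion would lower such an ungapped match, so the upstream values do not measure likeness in an alignment. Hba-a2 and Hba-a1 matched each other at 97.4% and 94.4% of the same positions. By order, strand and spacing, ENSRNOG00000047321, ENSRNOG00000028114 and ENSRNOG00000029886 stand where RefSeq has Hba-a2, Hbq1b and Hba-a1. That match rests on positions in different assemblies and was not checked by sequence, so the rows keep their identifiers. The absence of a motif says only that these letters are not in the window.

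Levels of different genes were compared per length, as RPKM (reads per kilobase of exon, scaled to the size of the library). Over the 24 pups, ENSRNOG00000029886 reached an RPKM of 2057 ± 382 (SD, n = 24) and ENSRNOG00000047321 an RPKM of 1611 ± 307. Hba-a3 stood at 25.0 ± 9.19, and the mean levels of ENSRNOG00000047321 and ENSRNOG00000029886 were 64.5 and 82.3 times as high. Next came ENSRNOG00000020488 at 21.4 ± 2.26, ENSRNOG00000028241 at 9.95 ± 0.883, ENSRNOG00000020571 at 9.11 ± 0.947 and Nprl3 at 7.56 ± 1.01. Hba-a3 was thus read per length at a level like that of a flanking gene. It was higher than ENSRNOG00000020488 in 14 of 24 pups, and their ranges overlapped. ENSRNOG00000029886 was higher than ENSRNOG00000047321 in 24 of 24 pups, although their ranges over pups overlapped. ENSRNOG00000028241 exceeded ENSRNOG00000020571 in 19 of 24 pups, and ENSRNOG00000020571 exceeded Nprl3 in 22 of 24.

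**Figure D1:**
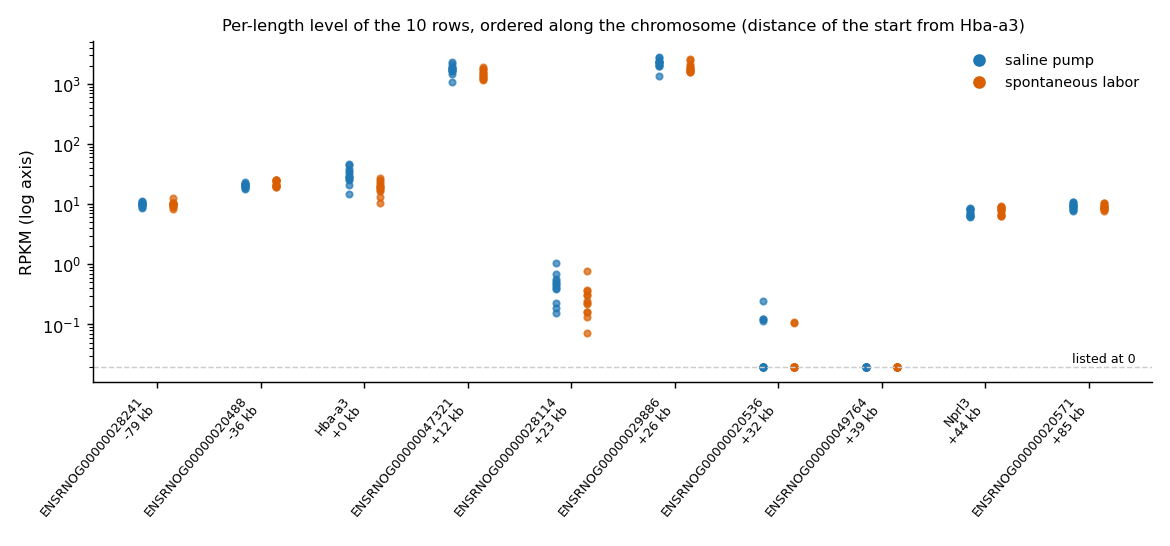
RPKM on a log axis (vertical) of the 10 members in chromosome order (horizontal, with the distance of each start from that of Hba-a3 in kb), with 1 point per pup; 12 saline pump pups are blue, 12 spontaneous labor pups are orange, and values listed at 0 are drawn on the dashed line. Hba-a3 lies with the flanking rows, ENSRNOG00000047321 and ENSRNOG00000029886 lie 64.5 and 82.3 times higher, and 3 members are at or near 0.

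3 members were barely read. ENSRNOG00000028114 held 1 to 13 counts per pup, 117 in all, of which 72 were in the saline pump group and 45 in the spontaneous labor group. ENSRNOG00000020536 had 7 counts in all and was at 0 in 18 of 24 pups. ENSRNOG00000049764 had 0 counts in all 24 pups, which allows up to 3 counts in a library, or 0.156 to 0.246 CPM (counts scaled to the size of the library). These limits cover counting error only. The other 7 members passed the filter of over 1 CPM in at least 4 pups and entered the tests, and none of the 3 others was tested with this filter.

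Hba-a3 was lower in the spontaneous labor pups than in most saline pump pups. In the saline pump group its level in CPM ran from 8.07 through a median of 15.9 to 25.2, from 113 to 367 counts. In the spontaneous labor group it ran from 5.81 through 10.4 to 15.1, from 88 to 248 counts. The ranges overlapped: 4 saline pump pups lay below the highest spontaneous labor pup, 2 spontaneous labor pups lay below the lowest saline pump pup, and 12 of 12 spontaneous labor pups lay below the saline pump median. The means were 16.8 ± 4.98 and 10.6 ± 2.64 CPM (SD, n = 12 each), a ratio of 1.59.

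By litter, the level of Hba-a3 in the first saline pump litter was 14.5 and 19.1 CPM in the males and 24.2 and 25.2 in the females. The second saline pump litter gave 15.4 and 15.5 CPM in its males and 8.07 and 20.7 in its females. In litter 3 they were 11.4 and 16.2 CPM in the males and 17.8 and 13.7 in the females. The highest and the lowest saline pump pups were thus all females, and the lowest sat in a litter with a female at 20.7 CPM. The first spontaneous labor litter gave 7.09 and 10.4 CPM in its males and 5.81 and 10.5 in its females. The second gave 11.8 and 15.1 CPM in its males and 13.6 and 13.01 in its females. In litter 3 the values were 9.48 and 10.2 CPM in the males and 9.01 and 10.8 in the females. Litter means lay between 14.8 and 20.8 CPM in the saline pump group and between 8.44 and 13.4 CPM in the spontaneous labor group, so that the means of all 3 spontaneous labor litters lay below those of all 3 saline pump litters. Of 14348 genes tested, 466 (3.25%) had that order of litter means, and 417 had the opposite order. Hba-a3 was chosen by this contrast, and nothing is read from its place among them.

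**Figure D2:**
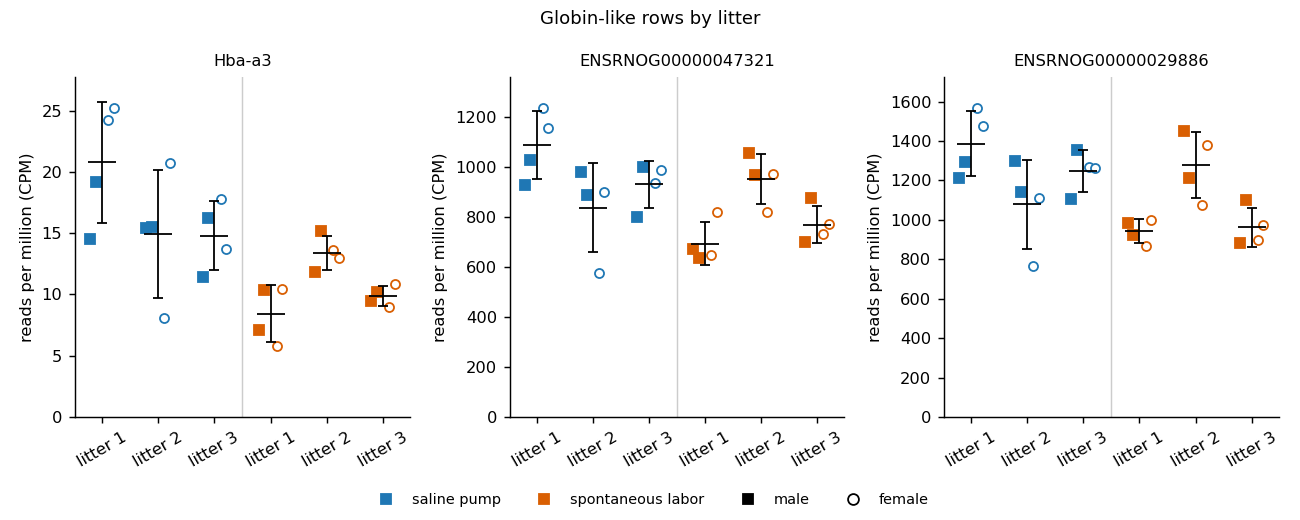
CPM (vertical, from 0) of Hba-a3, ENSRNOG00000047321 and ENSRNOG00000029886 by litter (horizontal); squares are males, open circles females, blue the saline pump and orange the spontaneous labor group, and black bars are the litter mean ± SD (n = 4 pups). Litter means of Hba-a3 lie between 14.8 and 20.8 CPM in the saline pump and between 8.44 and 13.4 CPM in the spontaneous labor group, and the 2 abundant rows overlap between the conditions.

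The 2 abundant rows showed the same direction with a smaller difference. ENSRNOG00000047321 ran from 576 through 957 to 1236 CPM in the saline pump group and from 636 through 794 to 1057 CPM in the spontaneous labor group, on 8063 to 18261 counts a pup. Its means were 951 ± 166 and 805 ± 138 CPM (SD, n = 12 each), a ratio of 1.18. ENSRNOG00000029886 ran from 767 through 1265 to 1568 CPM in the saline pump group and from 867 through 992 to 1449 CPM in the spontaneous labor group. Its means were 1238 ± 203 and 1062 ± 193 CPM, a ratio of 1.17. For both rows the pups of the groups overlapped, the lowest pup of all 24 belonged to the saline pump group, and the litter means overlapped as well. Surrogate variables, which stand for unrecorded sources of variation and are estimated from all genes, were covariates of the fitted log2 fold change. Counted as spontaneous labor minus saline pump, it was -0.61 for Hba-a3, -0.17 for ENSRNOG00000047321 and -0.18 for ENSRNOG00000029886. These values are given with no test. The median over all 14348 genes was 0.0014. Without the surrogate variables and in the other alternatives, leaving out a litter included, that of Hba-a3 lay between -0.76 and -0.48.

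The 3 tested globin-like rows were then summed, so that each was set against the others of the same pup. They held 0.135 to 0.283% of all counted reads of a pup. The mean was 0.221 ± 0.0372% in the saline pump and 0.188 ± 0.0327% in the spontaneous labor group (SD, n = 12 each). Within this sum, Hba-a3 took 0.596 to 1.02% of the counts in the saline pump group (median 0.721%) and 0.382 to 0.715% in the spontaneous labor group (median 0.561%). The means were 0.753 ± 0.140% and 0.562 ± 0.103%. The pups of the groups overlapped, but the litter means did not: they were 0.824, 0.762 and 0.672% in the saline pump and 0.511, 0.606 and 0.569% in the spontaneous labor group. The difference between the conditions, 0.191 percentage points, lay between 0.155 and 0.231 when each litter was left out in turn. Hba-a3 was chosen by this contrast and its count enters the share. The order of these litter means and this range are therefore a description and no support for a difference. In the pup with the lowest share, a female of the first spontaneous labor litter at 0.382%, the exact 95% interval was 0.307 to 0.471%, and in the pup with the highest, a female of the second saline pump litter at 1.02%, it was 0.908 to 1.15%. The spread within litters was 18.6% of the mean, and counting alone gives 7.37%.

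The counts of the 2 abundant rows kept close to one ratio. ENSRNOG00000029886 had 1.30 ± 0.0466 times the counts of ENSRNOG00000047321 in the saline pump group and 1.32 ± 0.0875 times in the spontaneous labor group (SD, n = 12 each), with a range of 1.22 to 1.46 over all pups. The highest 2 ratios, up to 1.46, were those of the males of the first spontaneous labor litter, whose females had 1.34 and 1.22. The spread of the ratio within litters was 4.70% of the mean, and counting alone gives 1.18%.

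**Figure D3:**
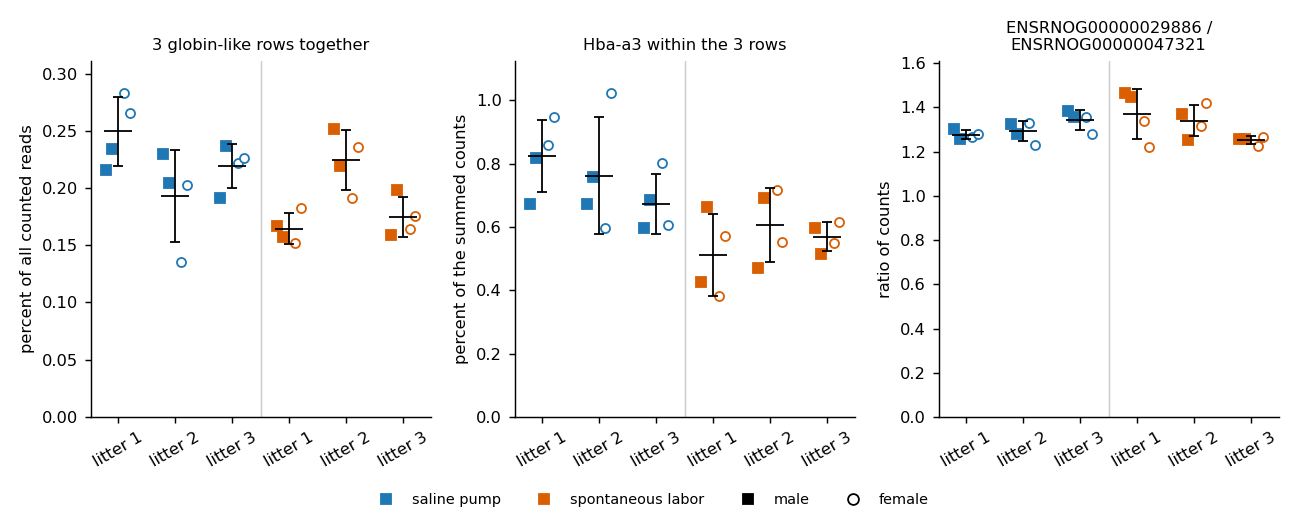
For each litter (horizontal), the 3 tested globin-like rows as a percent of all counted reads, Hba-a3 as a percent of the counts of the 3 rows, and the ratio of the counts of the 2 abundant rows (vertical, each from 0); squares are males, open circles females, and black bars the litter mean ± SD (n = 4 pups). The share of Hba-a3 has litter means of 0.672 to 0.824% in the saline pump (blue) and 0.511 to 0.606% in the spontaneous labor group (orange), while the ratio stays between 1.22 and 1.46 in every pup. Hba-a3 was chosen by the contrast of the conditions.

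Differences between litters of one condition were not used to choose the locus, and were tested with edgeR's quasi-likelihood F test with sex as a covariate and Benjamini-Hochberg adjustment over all genes. 5 of the 7 tested members were called at an adjusted p under 0.05, beside 4839 of all 14348 genes (33.7%). ENSRNOG00000029886 (adjusted p = 0.00385) and ENSRNOG00000047321 (adjusted p = 0.00744) had the smallest adjusted p of the members. The highest litter mean of ENSRNOG00000029886 was 1.29 times the lowest in the saline pump group and 1.36 times in the spontaneous labor group. Hba-a3 was called as well (adjusted p = 0.0292), with litter means 1.404 and 1.59 times apart. In each of the 3 rows the first litter was the highest of the saline pump group and the second the highest of the spontaneous labor group, where the first litter was the lowest. The flanking rows ENSRNOG00000020488 (adjusted p = 0.0249) and ENSRNOG00000028241 (adjusted p = 0.0286) were called with litter means at most 1.21 and 1.17 times apart. Nprl3 (adjusted p = 0.0788) and ENSRNOG00000020571 (adjusted p = 0.898) were not called. These calls moved with single litters. Without the first or the second spontaneous labor litter 2 members were called, and without the second saline pump litter 3 were. Hba-a3 kept its call in 3 of the 6 fits that left out a litter, without saline pump litter 2 or 3 or spontaneous labor litter 3.

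The same question was put to the sums and ratios by permutation of pups among litters of one condition, in a family of 6 tests with those of sex. For the sum of the 3 rows, 54.3% of the sum of squares within conditions lay between litters (permutation p = 0.00186, adjusted p = 0.0112). For the share of Hba-a3 it was 19.6% (permutation p = 0.384, adjusted p = 0.46), and for the ratio of the abundant rows 36.7% (permutation p = 0.0996, adjusted p = 0.299). Such a percentage lies above 0 even where litters do not differ, so it is read only with its permutation p. The spread among littermates was set beside counting error alone, which leaves out every other source of error. On the log2 scale the SD of Hba-a3 within litters was 0.355, where counting alone gives 0.101. That of ENSRNOG00000047321 was 0.202 against 0.0126, and that of ENSRNOG00000029886 0.191 against 0.0110. The corresponding values of Nprl3 were 0.161 and 0.0840.

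Sex was not used to choose the locus either. Hba-a3 averaged 18.3 ± 6.56 CPM in the females and 15.4 ± 2.502 in the males of the saline pump group, and 10.5 ± 2.85 and 10.7 ± 2.67 CPM in those of the spontaneous labor group (SD, n = 6 each). Over all pups the log2 difference, female minus male with litter as a covariate, was 0.11 (SE 0.127, edgeR adjusted p = 0.813). None of the 7 tested members was called (smallest adjusted p = 0.632, ENSRNOG00000020571), where 7 of 14348 genes (0.0488%) were. The interaction of condition and sex had a log2 value of -0.28 for Hba-a3 (SE 0.253, edgeR p = 0.281, adjusted p = 0.999). No member and 0 of 14348 genes (0%) were called for it in edgeR, with 535 genes at an unadjusted p under 0.05 and none of the 7 members among them. The share of Hba-a3 among the 3 rows was higher in females in 5 of 6 litters, by 0.0551 percentage points on average (exact permutation p = 0.281, adjusted p = 0.422, two-sided). The sum (exact permutation p = 0.845) and the ratio (exact permutation p = 0.163) did not pass the threshold either.

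The 4 tested flanking genes, taken by position, can be read with the test of the conditions. 0 of 4 were called, beside 1 of 14348 genes (0.00697%) in edgeR's quasi-likelihood test, where 1203 genes and none of the 4 had an unadjusted p under 0.05. The test takes pups as replicates, and these came from 3 litters per condition; with counts summed per litter, 0 of 4 were called as well. Nprl3 had 16.02 to 22.4 CPM in the saline pump (median 18.7, 222 to 362 counts) and 16.5 to 24.1 CPM in the spontaneous labor group (median 21.2, 247 to 377 counts). Its means were 19.01 ± 2.45 and 20.6 ± 2.72 CPM, and its fitted log2 fold change was -0.01 (SE 0.0657, adjusted p = 0.980). The sign thus differs between the means and the fit, and without surrogate variables the fit gave 0.11 (adjusted p = 0.614). ENSRNOG00000020488 had means of 35.2 ± 2.62 and 38.1 ± 4.44 CPM and a fitted log2 fold change of 0.0033 (SE 0.0517, adjusted p = 0.992). ENSRNOG00000028241 had means of 26.2 ± 1.96 and 26.1 ± 2.72 CPM and a fitted value of 0.05 (SE 0.0466, adjusted p = 0.814). ENSRNOG00000020571 had means of 9.30 ± 1.02 and 8.98 ± 0.886 CPM and a fitted value of -0.08 (SE 0.0763, adjusted p = 0.839). In all 4 genes the pups of the groups overlapped.

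**Figure D4:**
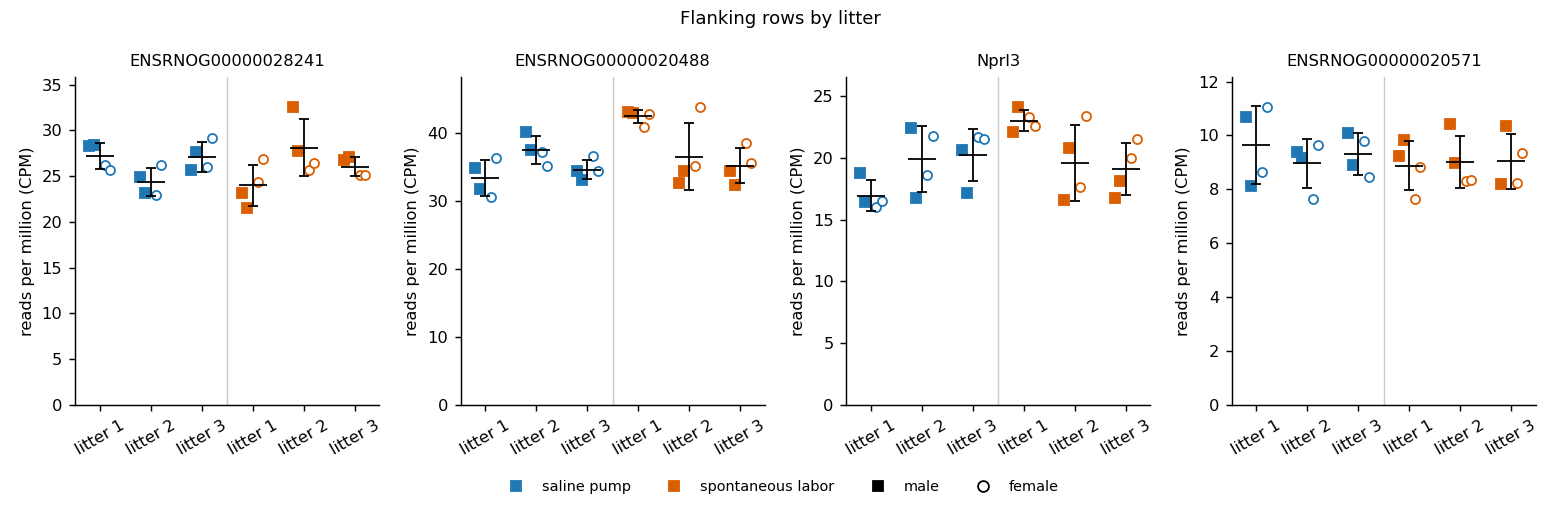
CPM (vertical, from 0) of the 4 tested flanking genes by litter (horizontal), drawn as for the globin rows, with black bars for the litter mean ± SD (n = 4 pups). The groups overlap in each panel, with Nprl3 between 16.02 and 24.1 CPM and ENSRNOG00000020571 between 7.64 and 11.1 CPM.

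Over the 24 pups the 3 globin rows moved together and the flanking genes did not follow them as closely. These correlations describe log2 CPM of pups that share litters, conditions and library totals, and carry no p. ENSRNOG00000047321 and ENSRNOG00000029886 had a Pearson r of 0.964, and of 0.944 after the litter means were taken out. Hba-a3 had an r of 0.848 with ENSRNOG00000047321 (0.702 within litters) and of 0.796 with ENSRNOG00000029886 (0.627 within litters). With Nprl3 its r was -0.41, and 0.088 within litters. With ENSRNOG00000020488 its r was -0.49, and -0.029 within litters. ENSRNOG00000020571 had an r of 0.371 with Hba-a3 (0.342 within litters) and of 0.425 with ENSRNOG00000029886 (0.436 within litters). ENSRNOG00000028241 had an r of 0.323 with Hba-a3 (0.021 within litters), but of 0.634 with ENSRNOG00000047321 (0.456 within litters). Among the flanking genes, ENSRNOG00000020488 and Nprl3 moved together most closely, with an r of 0.733 (0.566 within litters). Across all other 14347 genes tested the median r with Hba-a3 was -0.058, and 504 (3.51%) had an r over 0.5.

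**Figure D5:**
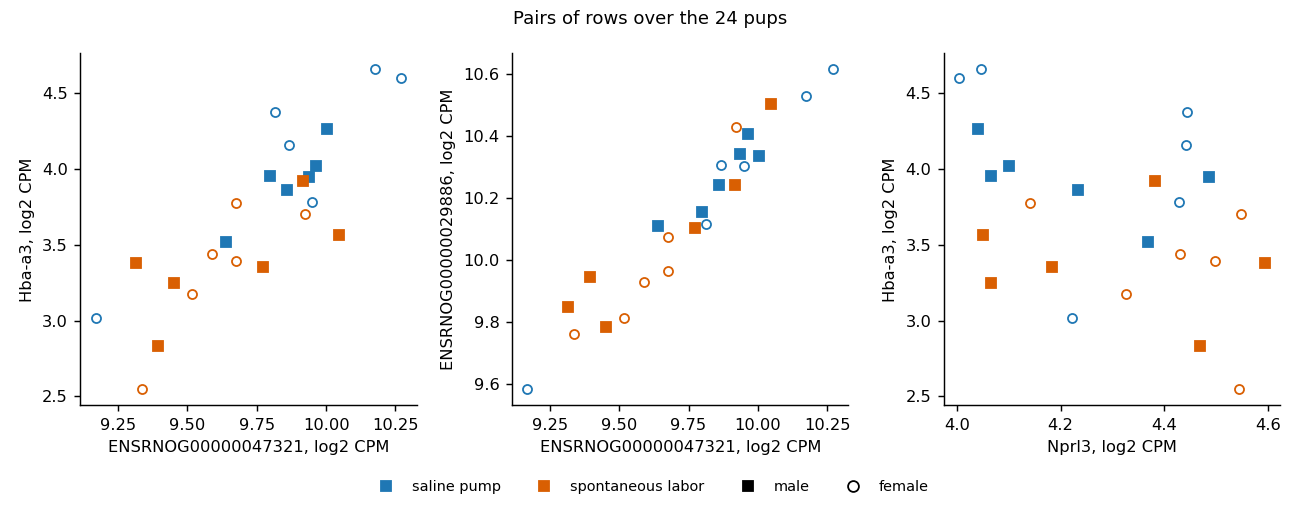
Log2 CPM of pairs of members over the 24 pups: Hba-a3 against ENSRNOG00000047321, ENSRNOG00000029886 against ENSRNOG00000047321, and Hba-a3 against Nprl3, with 1 point per pup (squares males, open circles females, blue saline pump, orange spontaneous labor). The 2 abundant rows lie close to a line (r = 0.964), Hba-a3 follows more loosely (r = 0.848), and with Nprl3 the r is -0.41.

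Outside the locus, the 3 genes most like Hba-a3 over the pups were chromosome 1 rows: ENSRNOG00000031230 (r = 0.856), ENSRNOG00000049424 (r = 0.851) and ENSRNOG00000048955 (r = 0.829). They start 5.52, 30.4 and 23.7 kb from LOC689064, a gene named as a beta globin, which was itself the tenth (r = 0.747). Their exonic lengths of 577, 623 and 664 bases are near the 627 bases of LOC689064. ENSRNOG00000031230 and ENSRNOG00000049424 averaged 99.2 and 563 CPM in the saline pump group and 70.4 and 471 CPM in the spontaneous labor group. The others were Cdk16 (r = 0.789), Scamp4 (r = 0.768), Rnf139 (r = 0.750), Tmem39b (r = 0.748) and 2 rows with no name in hand. With litter means taken out, 2 of these 10 genes remained among the 10 most like Hba-a3, and with rank correlation 6 did. The 2 that remained within litters were ENSRNOG00000031230 (r = 0.675) and ENSRNOG00000049424 (r = 0.655). LOC689064, with an r of 0.617 within litters, did not remain.

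Genes of hemoglobin and of red cells were taken from fixed lists, but identifiers were in hand for few, and those came from tables that the study's own comparison had ordered, so their direction is not independent evidence. Of 36 red cell genes, 4 had an identifier, and 0 of 4 were called between conditions in edgeR. All 4 had negative fitted values, with a median log2 fold change of -0.36, beside 0.0014 over all genes. Ahsp, the chaperone of free alpha globin, had 2.75 ± 0.699 CPM in the saline pump and 1.72 ± 0.545 CPM in the spontaneous labor group (SD, n = 12 each; log2 fold change -0.51, edgeR adjusted p = 0.372). Alas2, the first enzyme of heme synthesis in red cell precursors, had 12.2 ± 2.27 and 10.4 ± 1.64 CPM (log2 fold change -0.26, edgeR adjusted p = 0.452). Slc4a1, the anion exchanger of the red cell membrane, had 7.27 ± 1.56 and 5.79 ± 2.11 CPM (edgeR adjusted p = 0.845). LOC689064, the only one of 16 hemoglobin chains with an identifier besides Hba-a3, had 43.8 ± 7.92 and 36.7 ± 4.44 CPM (log2 fold change -0.27, edgeR adjusted p = 0.358). Rhd, a red cell membrane protein, had 1.50 ± 0.404 and 1.13 ± 0.354 CPM. Ahsp had an r of 0.727 with Hba-a3 over the pups (0.330 within litters) and Alas2 one of 0.722 (0.474 within litters). Slc4a1 followed less closely, with an r of 0.477 (0.173 within litters), as did Rhd with 0.250 (-0.20 within litters). The part of red cell content in the difference of Hba-a3 was not tested.

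Of the markers of other cells, the endothelial gene Cldn5 (1 of 8 with an identifier) had 63.2 ± 3.35 CPM in the saline pump and 60.2 ± 7.30 CPM in the spontaneous labor group. S100a8 and S100a9, genes of neutrophils and the 2 of 9 leukocyte markers with an identifier, had 1.61 ± 0.938 against 1.01 ± 0.616 CPM and 2.64 ± 1.50 against 1.68 ± 0.874 CPM. None of these 3 was called in edgeR (adjusted p = 0.957, 0.812 and 0.758). No identifier was in hand for the 11 markers of cortical neurons, so the labelled tissue was not checked here.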

How the data were processed

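RNA from the right cerebral cortex of 24 pups was analysed. The authors aligned reads to Rnor_5.0 with STAR 2.0.4b and deposited the count of uniquely aligned, unambiguous reads per Ensembl gene from featureCounts, not normalized. Beside it the authors gave CPM, which divide each count by the total of its library, and RPKM, which divide the CPM by the length of the exons. Strandedness of the counting was not given in the sources used here. Condition and sex came from the labels. Litter came from the library identifiers, which pair no samples across conditions.

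Genes over 1 CPM in at least 4 pups (14348) were tested with edgeR 4.0.16 (R 4.3.3; TMM factors 0.972 to 1.02, quasi-likelihood, Benjamini-Hochberg threshold 0.05), adjusted over all of them. The comparison of conditions carried 6 surrogate variables from sva 3.50.0. The tests of litter, sex and interaction carried the 6 litters. SE is the log2 fold change over the root of F. Counts enter log2 CPM with a prior of 0.5. DESeq2 1.42.0 and limma 3.58.1 were alternatives. The fits were tested on simulated data. Depth, 12170547 to 19260066 counts a pup, sets the counting precision, and the 3 litters per condition set that of the conditions.

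All 10 members are named, and outside the locus the 10 genes with the highest correlation with Hba-a3 and the fixed lists of red cell and marker genes, of which one gene is not reported here. The members and lists were chosen with earlier results of these data known. Symbols came from the study's supplementary gene lists (967 symbols), and promoters from RefSeq (GRCr8), of which the 250 bases before the start were used; the alignments used Biopython 1.88. A list of choroid plexus, meningeal and glial markers had no identifier in hand and gave no value. P-values over pups measure the spread among pups of these 6 litters.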

Additional observations from a re-analysis of the deposited data

How the results depend on the processing

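The count of flanking genes called between conditions stayed at 0 under all 12 alternatives, as did the counts of members called for sex and for the interaction under 9 and 8. For the conditions, 4 flanking rows were tested. Without the filter on low counts they were 5, with ENSRNOG00000028114. That row is flanking by its length only and lies inside the cluster, where the RefSeq order has the hemoglobin gene Hbq1b. Of the members called between litters, DESeq2 called 5, testing without the filter 4, and leaving out one litter 2 to 5. Over all genes, the comparison of conditions called 0 to 572 in the fits that left out a litter (572 without spontaneous labor litter 3), 16 in DESeq2, 11 in limma and 8 without the filter. The fitted difference of Hba-a3, which was chosen on its difference between the conditions, kept its sign in all 12 alternatives (-0.76 to -0.48).

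Fitted differences of flanking genes near 0 changed sign. Nprl3 turned from -0.01 to 0.11 without surrogate variables, 0.11 with condition and sex, 0.10 with counts summed per litter and 0.0028 without the filter, and ranged from -0.085 to 0.10 when a litter was left out. ENSRNOG00000028241 turned to -0.0079, -0.0081 and -0.0092 in the first 3 of these, and ranged from -0.025 to 0.067 when a litter was left out. ENSRNOG00000020488 turned to -0.012 in limma and ranged from -0.037 to 0.11 when a litter was left out. The sex difference of Hba-a3 ranged from -0.0073 to 0.15 when a litter was left out. None of these passed the threshold, and the cause was not tested. Of the 10 genes most like Hba-a3, 2 remained with Pearson correlation within litters and 6 with Spearman correlation. Leaving out each litter for the share of Hba-a3 was chosen after seeing the data. For the conditions, no paired analysis was possible because each dam had a single condition, so that no litter held both. The comparisons of sex were made within litters.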

Other observations

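Among 36 groups of 6 pups (condition by sex, for the 7 tested members, the share of Hba-a3 and the ratio of the abundant rows), 0 held a pup that stood apart from the others by Dixon's 95% critical value of 0.625, where chance would give about 1.8.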
